A study of Mus musculus with 32 samples.

Results

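The genes described here are 9 genes of matricellular signalling and fibrosis, Fn1, Postn, Tnc, Thbs1, Mmp2, Lox, Pdgfra, Pdgfrb and Acta2, in the kidney of mice with cisplatin-induced acute kidney injury. They were chosen by name, and all 9 were found among the 54532 genes of the count table and passed the filter on low counts in every comparison. Whole kidneys of wild type (wt) C57bl/6 mice aged 6 to 8 weeks were sequenced in 8 groups of 4 animals. Males and females were sampled at Day 0, as healthy mice, and on Day 2, Day 3 and Day 5 after a single intraperitoneal dose of 20 mg/kg cisplatin. All groups share strain and genotype, and each Day 0 group is the only control for the 3 later days of its sex, so the comparisons against Day 0 within a sex share their control kidneys. The sample labels carry the word cisplatin for the Day 0 females and none for the Day 0 males, and both were taken as healthy after the study's methods.

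Fibrosis is the build-up of extracellular matrix by fibroblasts and myofibroblasts after tissue injury. Matricellular proteins such as periostin, tenascin-C and thrombospondin-1 are secreted into the matrix, where they modulate how cells attach and signal rather than bearing load themselves, while fibronectin forms the early provisional matrix. Mmp2 (a gelatinase) degrades matrix and Lox (lysyl oxidase) crosslinks collagen and elastin. Pdgfra and Pdgfrb encode the receptors for platelet-derived growth factors on fibroblasts, pericytes and mesangial cells, and Acta2 encodes smooth muscle actin of vessel walls and of myofibroblasts.

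In the GRCm38 coordinates of the count table, Fn1 lies on chromosome 1 (71585520-71653200, minus strand), Postn on chromosome 3 (54361109-54391037, plus), Tnc on chromosome 4 (63959785-64047015, minus) and Thbs1 on chromosome 2 (118111876-118127133, plus). Mmp2 lies on chromosome 8 (92827291-92853420, plus), Pdgfra on chromosome 5 (75152292-75198215, plus) and Acta2 on chromosome 19 (34241090-34255336, minus).

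The stretches of 100 bases before the transcription start are shown for Postn, Tnc and Pdgfra, 3 of the genes that rose in males after cisplatin. They are RefSeq promoters of build GRCm38.p6, printed 5′ to 3′ on the strand of the gene, and capitals mark the motif TATATAA. No base shown for them lies in an annotated exon.
Postn, chr3:54361007-54361106, plus strand: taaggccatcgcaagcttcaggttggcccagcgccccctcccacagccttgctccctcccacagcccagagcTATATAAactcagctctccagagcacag
Tnc, chr4:64047016-64047115, minus strand: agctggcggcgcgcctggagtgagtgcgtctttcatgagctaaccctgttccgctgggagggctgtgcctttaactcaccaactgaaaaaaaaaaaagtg
Pdgfra, chr5:75152151-75152250, plus strand: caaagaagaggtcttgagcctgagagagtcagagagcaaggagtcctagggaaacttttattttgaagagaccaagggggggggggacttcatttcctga
RefSeq windows, each holding 250 bases before and 50 bases after a start, were at hand for 4 of the 9 genes (6 windows, with a pair of starts each for Postn and Tnc, and 1 each for Pdgfra and Acta2). TATATAA, searched on both strands, occurred in the Postn window shown, in the window of the downstream Tnc start and in the Acta2 window, whose stretches for Tnc and Acta2 lie partly in an annotated exon and are not printed. It occurred in 3.24% of the 32851 promoter windows of the same length. Counted from the start, it lay at -28 to -22 in Postn and -29 to -23 in Tnc. In Acta2 it lay at 8 to 14, after the start. Neither the AP-1 motif (TGACTCA or TGAGTCA, both strands, present in 5.20% of all windows) nor the strict CArG box (1.63%) occurred in any of the 6 windows. The strict CArG box is CC, then 6 bases of A or T, then GG. Less strict forms of it were not searched, so the windows may hold them.

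Sequencing depth was between 16502107 and 35961325 counts per library, and the lowest count of any of the 9 genes in a library was 14, for Lox. Some libraries stood apart from the others of their own group. The share of counts from mitochondrial genes was 42.5% in male Day 5 mouse 1 and 78.9 to 79.8% in male Day 5 mice 2, 3 and 4, and it was 77.9% in female Day 5 mouse 2 against 9.30 to 31.6% in the other Day 5 females. At Day 0 it was 24.0% in male mouse 4 and 19.7% in female mouse 4, the kidneys with the highest summed CPM (counts scaled to a common library size) of fibroblast markers at that day (852 and 495) and of adipocyte markers (856 and 507). Female Day 0 mouse 2 had 11457 CPM of hepatocyte markers, against 57.0 to 418 CPM in the other females. Male Day 5 mouse 1 held 4153 counts of the female-specific RNA Xist beside 387 counts of Y-linked genes, which goes against its label, and it is therefore called the library labelled male Day 5 mouse 1. Xist was at 0 to 260 counts in the other male libraries, and Y-linked counts in the females were 5 to 221 at Day 0 and 0 later. Proximal tubule, thick limb and podocyte markers were present in all 32 libraries.

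Before cisplatin, the 9 genes were ordered by FPKM, the deposited level scaled to gene length and library size. In males Acta2 was highest with 34.0 ± 19.3 FPKM (mean ± SD, n = 4 in all groups below), followed by Pdgfrb with 7.53 ± 0.519 FPKM and Thbs1 with 5.61 ± 0.789 FPKM. Acta2 and Pdgfrb did not overlap, and neither did Pdgfrb and Thbs1. From Thbs1 downwards each gene overlapped the next, through Fn1 (3.63 ± 2.09 FPKM), Mmp2 (2.27 ± 1.97), Pdgfra (2.20 ± 1.09), Lox (0.979 ± 1.13), Postn (0.968 ± 0.977) and Tnc (0.671 ± 0.239). The female order was the same but for Postn (1.17 ± 0.763 FPKM) above Lox (0.676 ± 0.376 FPKM), a pair that overlapped in both sexes, and in females Pdgfrb (8.42 ± 0.783 FPKM) and Thbs1 (6.58 ± 2.19 FPKM) overlapped too. The matricellular genes Postn and Tnc were thus among the 3 lowest of the 9 in the healthy kidney.

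**Figure D1:**
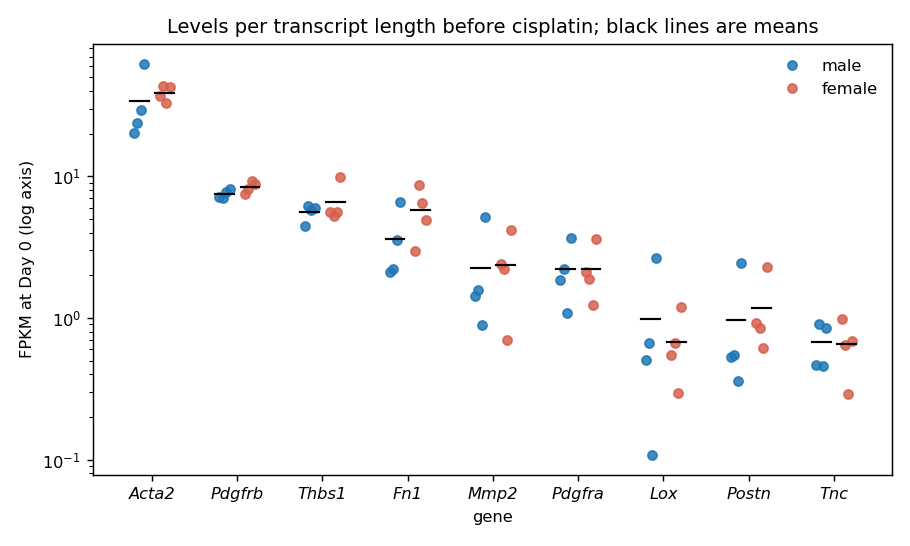
FPKM (log axis) of each of the 9 genes in each Day 0 kidney, males in blue and females in red, with black lines at the group means. Acta2 lies above all others in both sexes, with 34.0 FPKM on average in males and 38.9 FPKM in females, and the male Day 0 mouse 4 is the highest male point for Acta2, Fn1, Mmp2, Pdgfra, Lox and Postn.

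At Day 0 none of the 9 genes passed the test between the sexes (edgeR quasi-likelihood test with Benjamini-Hochberg adjustment over all genes tested, adjusted p under 0.05, as in all tests below). None had an unadjusted p under 0.05 either, and the Wald test of DESeq2 called 0 of the 9. Of all genes, 0.449% passed. The spread within the Day 0 groups was wide for several of them, since Postn was 3.10 to 4.95 CPM in 3 males and 21.7 CPM in mouse 4, and Lox was 0.511 to 3.30 CPM in the same 3 males and 13.0 CPM in mouse 4.

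In males, cisplatin was followed by higher Tnc, Pdgfra and Thbs1 on Day 2 and Day 3 and by a rise of Postn on Day 5. Beside the 9 genes, the background is the share of all genes that passed in the same test. On Day 2, 3 of the 9 rose and 0 fell (2 with an absolute log2 fold change over 1.5, called DEGs here), against 1.81% of all genes higher, 1.35% lower and 0.716% DEGs. On Day 3, 4 rose and 1 fell (1 DEG), against 11.4% higher, 13.1% lower and 3.72% DEGs. On Day 5, 3 rose and 0 fell (2 DEGs), against 8.98% higher, 10.2% lower and 7.53% DEGs. The median log2 fold change of the 9 was 0.89, 0.50 and 1.37 on the 3 days, with 0.03, 0.02 and 0.04 over all genes tested.

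In females, 1 of the 9 genes passed against Day 0, the fall of Acta2 on Day 3. On Day 2, 0 of the 9 passed (0.774% of all genes were higher and 1.16% lower), and DESeq2 called 1. An unadjusted p under 0.05 was reached by 4 of the 9 and by 4189 of 16541 genes. On Day 3, 0 rose and 1 fell, with no DEG among them (1.26% higher, 4.28% lower and 2.48% DEGs among all genes). An unadjusted p under 0.05 was reached by 5 of the 9 and by 5247 of 17065 genes. DESeq2 called 5 of the 9, with Thbs1, Pdgfra and Lox higher and Fn1 and Acta2 lower. On Day 5, 0 passed (0.185% higher and 0.0738% lower), and DESeq2 called 1. An unadjusted p under 0.05 was reached by 2 of the 9 and by 2548 of 16260 genes. The share of all genes called by DESeq2 in these female comparisons is not given here. The median log2 fold changes of the 9 were 0.10, -0.08 and 0.40, with 0.03 over all genes on each day.

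**Figure D2:**
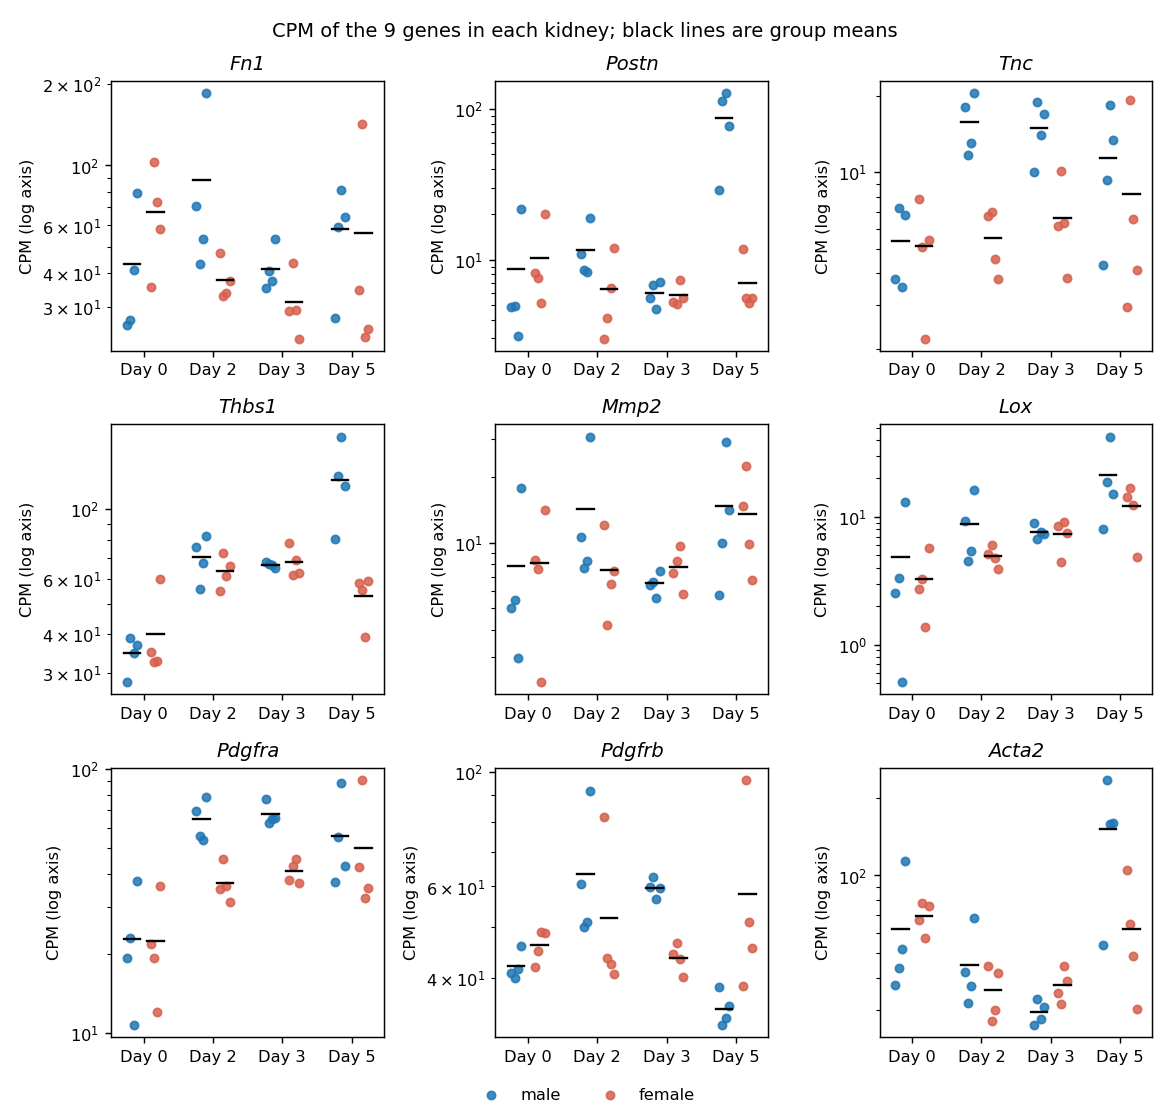
CPM (log axis) of each of the 9 genes in all 32 kidneys by day, males in blue and females in red, 4 kidneys a group, with black lines at the group means. Male Day 5 kidneys hold the highest Postn values (28.9 to 127 CPM), and male Day 2 and Day 3 kidneys lie above both Day 0 groups for Tnc and Pdgfra.

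Postn, which encodes periostin, was low in all groups but 1. It was 4.83, 4.95, 3.10 and 21.7 CPM in the Day 0 males, 4.67 to 7.07 CPM in the Day 3 males, and 28.9, 114, 127 and 77.4 CPM in the Day 5 males. No Day 5 male overlapped a male of Day 0, although the library labelled male Day 5 mouse 1 was closest to it. The mean went from 8.64 ± 8.73 to 86.8 ± 44.0 CPM, a log2 fold change of 3.42 ± 0.69 (SE, adjusted p = 0.0137), or 10.7-fold. Postn passed in all 8 fits that left out 1 kidney (log2 fold changes of 3.14 to 4.40, adjusted p up to 0.0470), but without a filter on low counts its adjusted p was 0.0566. Without male Day 0 mouse 4, Postn passed on Day 2 as well (1.46, adjusted p = 0.0370). Against Day 3 the rise was 3.94 ± 0.44 on the log2 scale (adjusted p = 0.00201), with no overlap. In females Postn was 8.17, 7.53, 5.14 and 20.1 CPM at Day 0 and 11.9, 5.53, 5.14 and 5.53 CPM on Day 5, with groups that overlapped and an adjusted p of 0.567.

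Tnc encodes tenascin-C, a hexameric glycoprotein that is scarce in most healthy adult tissues. It was 3.80, 7.25, 3.54 and 6.78 CPM in the Day 0 males and 18.2, 11.8, 13.0 and 20.6 CPM in the Day 2 males, which did not overlap. It rose by 1.59 ± 0.30 on the log2 scale on Day 2 (3.01-fold, adjusted p = 0.0397) and by 1.496 ± 0.30 on Day 3 (2.82-fold, adjusted p = 0.0143), when the males were at 10.005, 19.02, 14.12 and 17.02 CPM. On Day 5 the males were spread from 4.31 to 18.5 CPM and overlapped Day 0, with a log2 fold change of 1.16 ± 0.45 (adjusted p = 0.0971). Without the library labelled male Day 5 mouse 1, the lowest of them, that change was 1.45 with an adjusted p of 0.0189. In females Tnc was 2.20 to 7.88 CPM at Day 0, 3.79 to 6.95 CPM on Day 2, 3.82 to 10.1 CPM on Day 3 and 2.94 to 19.4 CPM on Day 5, the highest being mouse 2 with the high mitochondrial share, and it passed on no day (adjusted p = 0.897, 0.584 and 0.590).

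Thbs1 encodes thrombospondin-1, an activator of latent TGF-beta and an inhibitor of angiogenesis. It was 28.1, 38.9, 34.9 and 37.0 CPM in the Day 0 males, 55.8 to 82.2 CPM on Day 2, 65.1 to 67.9 CPM on Day 3 and 80.2, 128, 171 and 118 CPM on Day 5. No male of a later day overlapped Day 0. The log2 fold changes were 1.03 ± 0.17 on Day 2 (adjusted p = 0.0314), 0.94 ± 0.12 on Day 3 (adjusted p = 0.00487) and 1.90 ± 0.26 on Day 5 (3.74-fold, adjusted p = 0.00485), and Day 5 was also above Day 3 by 0.99 ± 0.21 (adjusted p = 0.00849). The Day 3, Day 5 and Day 5 against Day 3 calls held in all 8 fits that left out 1 kidney. In females Thbs1 was 35.1, 32.6, 32.7 and 60.1 CPM at Day 0, 54.9 to 72.4 CPM on Day 2, 61.7 to 78.0 CPM on Day 3 and 39.0 to 59.0 CPM on Day 5. Those log2 fold changes were 0.66 ± 0.25 (adjusted p = 0.131), 0.74 ± 0.23 (adjusted p = 0.0711) and, for Day 5, an adjusted p of 0.459. Female Day 0 mouse 4 was apart from the other 3 Day 0 females, and without it Thbs1 passed on Day 2 (0.93, adjusted p = 0.00612) and Day 3 (1.01, adjusted p = 0.00167). In 1 fit over all 8 groups female Thbs1 passed on both days (0.66 and 0.76, adjusted p = 0.0181 and 0.00787), and with DESeq2 on Day 3 (0.76, adjusted p = 0.0216).

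Fn1, which encodes fibronectin, passed in no comparison in the edgeR fits with all kidneys, and with DESeq2 it passed in females on Day 3 (-1.11, adjusted p = 0.0131) and between the sexes on Day 2 (1.19, adjusted p = 0.0448). Male means were 43.2 ± 25.0 CPM at Day 0, 88.2 ± 65.4 CPM on Day 2, 41.6 ± 8.17 CPM on Day 3 and 58.1 ± 22.7 CPM on Day 5, and the Day 2 mean contains mouse 4 at 185 CPM, which also had the highest fibroblast markers of that group (985 CPM). Female means were 67.4 ± 28.2, 37.9 ± 6.58, 31.2 ± 8.78 and 56.4 ± 57.7 CPM in the same order. Female Day 0 mouse 2, the kidney with hepatocyte markers, had the highest Fn1 of its group (103 CPM), and hepatocytes are a known source of fibronectin; the part of those markers in the result was not tested. The female log2 fold changes were -0.84 ± 0.30 on Day 2 (adjusted p = 0.125) and -1.13 ± 0.32 on Day 3 (adjusted p = 0.0622). Without female Day 0 mouse 4 the Day 3 change was -1.19 and passed (adjusted p = 0.0269), and without all libraries that stood apart it was -0.81 and did not pass (adjusted p = 0.112). In males Fn1 passed between Day 3 and Day 5 without the library labelled male Day 5 mouse 1 (0.79, adjusted p = 0.00251), and against females on Day 3 without female Day 3 mouse 2 (0.60, adjusted p = 0.0176). Without all libraries that stood apart it also passed in males on Day 5 against Day 0 (1.21, adjusted p = 0.00988), between the sexes on Day 5 (1.39, adjusted p = 0.000366) and for the interaction of sex and Day 5 (2.15, adjusted p = 0.00776).

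The matrix enzymes Lox and Mmp2 did not pass against Day 0 in the edgeR fits of the compared groups with edgeR's own filter on low counts, and both passed between Day 3 and Day 5 in males. Other settings called Lox. Lox (chromosome 18, 52516069-52529867, minus strand) was 0.511 to 13.0 CPM in the Day 0 males and 8.05, 18.9, 42.5 and 15.1 CPM on Day 5. Against Day 0 it changed by 2.22 ± 0.83 on the log2 scale (adjusted p = 0.0876), and without male Day 0 mouse 4 by 3.39 (adjusted p = 0.0180). It passed in 1 fit over all 8 groups (2.13, adjusted p = 0.00874) and with DESeq2 (2.22, adjusted p = 0.0212). Without that mouse Lox passed on Day 3 too (1.88, adjusted p = 0.0298). Against Day 3, where the males were at 6.75 to 8.96 CPM, Lox rose by 1.54 ± 0.43 (2.92-fold, adjusted p = 0.0224). Female Lox means went from 3.28 ± 1.83 CPM at Day 0 through 4.97 ± 0.898 and 7.38 ± 2.12 CPM to 12.1 ± 5.14 CPM on Day 5, with an adjusted p of 0.155 on Day 5 (1.87 ± 0.49) that became 0.0181 (2.29) without female Day 0 mouse 4. Without that mouse female Lox passed on Day 3 too (1.56, adjusted p = 0.0136), and DESeq2 called it on Day 3 (1.17, adjusted p = 0.0397) and Day 5 (1.88, adjusted p = 0.00782). On Day 5 it also passed without a filter on low counts (1.85, adjusted p = 0.0428) and in 1 fit over all 8 groups (1.86, adjusted p = 0.0448). Mmp2 rose between Day 3 and Day 5 in males, from 6.52 ± 0.773 to 14.7 ± 10.1 CPM (1.25 ± 0.43 on the log2 scale, adjusted p = 0.0442), where mouse 3 alone was at 29.0 CPM and the groups overlapped. Without male Day 0 mouse 4, Mmp2 passed in males on Day 5 against Day 0 (1.77, adjusted p = 0.0481), and without all libraries that stood apart as well (2.07, adjusted p = 0.0113). Over all kidneys it had male means of 7.85 ± 6.82 CPM at Day 0 and 14.4 ± 11.04 CPM on Day 2, and female means between 7.54 and 13.5 CPM.

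Of the receptors, Pdgfra went up early and stayed up in males. It was 19.2, 22.9, 10.7 and 37.8 CPM in the Day 0 males, 69.4, 55.9, 54.0 and 78.6 CPM on Day 2, and 76.99, 62.6, 64.6 and 65.0 CPM on Day 3, without overlap. The log2 fold changes were 1.52 ± 0.34 on Day 2 (2.87-fold, adjusted p = 0.0481) and 1.57 ± 0.33 on Day 3 (2.98-fold, adjusted p = 0.0155). On Day 5 the males were at 37.2, 55.1, 88.1 and 43.1 CPM, overlapped the highest Day 0 male, and were higher by 1.38 ± 0.39 (adjusted p = 0.0373). Female Pdgfra means were 22.3 ± 10.1 CPM at Day 0 and 37.1 ± 6.02, 40.9 ± 4.08 and 50.4 ± 27.4 CPM on the later days. Without male Day 5 mouse 3, Pdgfra was lower on Day 5 than on Day 3 in males (-0.50, adjusted p = 0.0461). The female log2 fold changes of 0.73 ± 0.31, 0.86 ± 0.30 and 1.18 ± 0.41 did not pass (adjusted p = 0.173, 0.0936 and 0.226), and all 3 passed without female Day 0 mouse 4 (1.07, 1.19 and 1.52, adjusted p = 0.0116, 0.00382 and 0.0371). Female Pdgfra also passed on Day 3 with DESeq2 (0.88, adjusted p = 0.0356) and on Day 5 in 1 fit over all 8 groups (1.16, adjusted p = 0.0242).

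Pdgfrb (chromosome 18, 61045150-61085061, plus strand), the receptor of pericytes and mesangial cells, varied little among the Day 0 males. It was 40.9, 39.9, 41.6 and 46.0 CPM in the Day 0 males, and 60.0, 62.5, 56.8 and 59.5 CPM in the Day 3 males, a rise of 0.50 ± 0.10 on the log2 scale (1.42-fold, adjusted p = 0.0124). On Day 5 it was 38.4, 32.4, 33.3 and 35.2 CPM, below every male of Day 3, and fell by 0.69 on the log2 scale (SE 0.10, adjusted p = 0.00260) against Day 3. Both calls held in all 8 fits that left out 1 kidney, although in 1 fit over all 8 groups the adjusted p of the Day 3 rise was 0.106. On Day 2 the male change was 0.60 ± 0.20 (adjusted p = 0.0983, and 0.0456 with DESeq2), and 0.36 to 0.70 in the fits that left out 1 kidney. In females Pdgfrb means were 46.2 ± 3.30, 52.2 ± 19.8, 43.7 ± 2.67 and 57.9 ± 26.2 CPM from Day 0 to Day 5 and no change passed. Female Day 5 mouse 2, with the high mitochondrial share, was at 96.4 CPM, against 38.6 to 51.1 CPM in the other 3.

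Acta2 went down on Day 3 in both sexes and was high in most Day 5 males. In males it was 37.6, 43.6, 52.0 and 114 CPM at Day 0, 26.3, 33.1, 27.7 and 31.1 CPM on Day 3 and 53.7, 235, 159 and 159 CPM on Day 5. Day 3 did not overlap Day 0 or Day 5. It fell by 1.07 on the log2 scale on Day 3 (SE 0.34, adjusted p = 0.0483) and rose by 2.45 ± 0.38 from Day 3 to Day 5 (5.48-fold, adjusted p = 0.00319), the latter in all 8 fits that left out 1 kidney. Day 5 against Day 0 gave 1.37 ± 0.48 (adjusted p = 0.0705), which passed without male Day 0 mouse 4 (1.82, adjusted p = 0.0249) and without the library labelled male Day 5 mouse 1 (1.65, adjusted p = 0.0150), with DESeq2 (1.37, adjusted p = 0.0221) and in 1 fit over all 8 groups (1.29, adjusted p = 0.00676). In females it was 57.0 to 78.4 CPM at Day 0, 27.2 to 44.8 CPM on Day 2, 31.7 to 44.7 CPM on Day 3 and 30.4 to 105 CPM on Day 5. The female fall on Day 3 was 0.90 on the log2 scale (a change of -0.90 ± 0.17, adjusted p = 0.0465), and the Day 2 change was -0.96 ± 0.23 (adjusted p = 0.0528), both without overlap. The female Day 2 change passed with DESeq2 (-0.95, adjusted p = 0.00493), without a filter on low counts (-0.93, 0.0496) and with at least 10 counts in every library (-0.95, 0.0386).

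**Figure D3:**
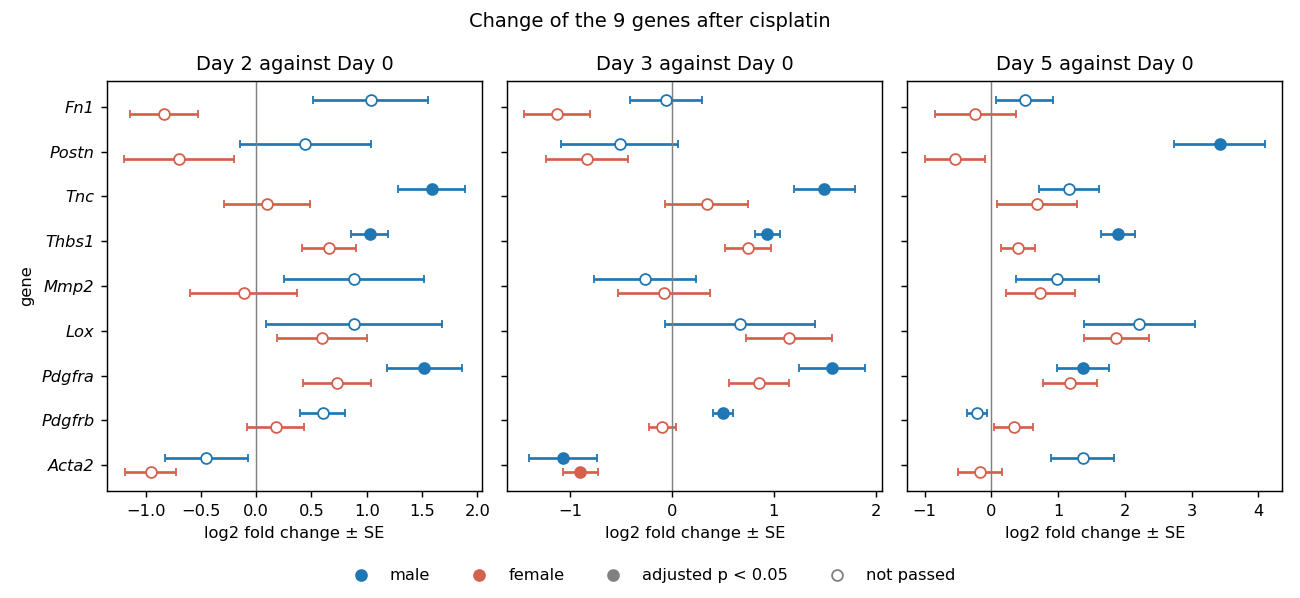
Log2 fold change (x axis, points with SE bars) of each of the 9 genes against Day 0 of the same sex on Day 2, Day 3 and Day 5, males in blue and females in red. Filled points passed at an adjusted p under 0.05 (3, 5 and 3 male points on the 3 days, and 1 female point, Acta2 on Day 3), and the largest value is Postn in Day 5 males, 3.42.

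Between Day 3 and Day 5, 6 of the 9 genes passed in males, 5 rising (Postn, Thbs1, Acta2, Mmp2 and Lox) and 1 falling (Pdgfrb), 3 of them DEGs. Of all genes, 20.9% were higher, 17.1% lower and 9.64% DEGs, so that a large part of the transcriptome passed as well. Leaving out 1 kidney kept Postn, Thbs1, Acta2 and Pdgfrb in 8 of 8 fits and Lox in 5 of 8, where it was lost without male Day 3 mouse 2, 3 or 4 (adjusted p = 0.0632, 0.0582 and 0.0602). The log2 fold change of Lox was 0.94 to 1.81 in the 8 fits. Mmp2 passed in 1 of 8, the fit without the library labelled male Day 5 mouse 1, with adjusted p from 0.0603 to 0.110 in the others and a log2 fold change of 0.67 without male Day 5 mouse 3. Both Lox and Mmp2 were also lost without a filter on low counts (adjusted p = 0.0779 and 0.111) and in 1 fit over all 8 groups (0.0696 and 0.125). In females 0 of the 9 genes, and 0% of all genes in either direction, passed with edgeR between the same days. In that female comparison 3 of the 9 and 1973 of 16794 genes had an unadjusted p under 0.05, and DESeq2 called 0 of the 9 and 39 genes in all.

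The male calls against Day 0 depended on single kidneys to different degrees. Over all genes, fits that left out 1 male kidney gave 13 to 2306 calls on Day 2, 669 to 6220 on Day 3 and 832 to 3951 on Day 5. On Day 2 Tnc, Thbs1 and Pdgfra passed only in the fits without male Day 0 mouse 3 or without male Day 0 mouse 4. Without male Day 0 mouse 1 or 2, or any 1 of the 4 Day 2 males, all 3 were lost, with adjusted p up to 0.127 for Tnc, 0.108 for Thbs1 and 0.137 for Pdgfra, at log2 fold changes of at least 1.43, 0.92 and 1.40. On Day 3 Tnc was lost without male Day 3 mouse 3 (adjusted p = 0.0511) and Pdgfra without male Day 3 mouse 1 or 3 (adjusted p = 0.0515 and 0.0536). Acta2 was lost there without male Day 0 mouse 2 (adjusted p = 0.0556) or any 1 of the 4 Day 3 males (0.0992 to 0.123), and its change was -0.59 without male Day 0 mouse 4. On Day 5 Pdgfra was lost in 6 of 8 fits, those without male Day 0 mouse 1, 2 or 3 or male Day 5 mouse 2, 3 or 4 (adjusted p = 0.0505 to 0.113). In females, the Acta2 call on Day 3 held only without female Day 0 mouse 4, with adjusted p from 0.0540 to 0.168 in the 7 other fits, and was lost in 1 fit over all 8 groups (0.0669). Without a filter on low counts Acta2 in males on Day 3 (adjusted p = 0.0681) and Pdgfra in males on Day 5 (0.0510) were lost.

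In direct comparisons of the sexes 1, 4 and 1 of the 9 genes passed on Day 2, Day 3 and Day 5. On Day 2 Tnc was higher in males (15.9 ± 4.17 against 5.50 ± 1.58 CPM, 1.51 ± 0.25 on the log2 scale, adjusted p = 0.0152), without overlap, and it was the 1 gene of the 9 that passed, also as a DEG (1.47% of all genes passed and 0.813% were DEGs). On Day 3, 4 of the 9 passed, none as a DEG, where 21.3% of all genes passed and 1.93% were DEGs. Pdgfra was higher in males by 0.69 ± 0.09 (67.3 ± 6.54 against 40.9 ± 4.08 CPM, adjusted p = 0.00156) and Pdgfrb by 0.42 ± 0.07 (59.7 ± 2.34 against 43.7 ± 2.67 CPM, adjusted p = 0.00278), both without overlap and in all 8 fits that left out 1 kidney. Tnc was higher by 1.16 ± 0.30 (adjusted p = 0.0292) and Acta2 lower, with a log2 difference of -0.38 ± 0.11 (adjusted p = 0.0420). With 1 fit over all 8 groups, neither the Day 2 call nor any of the 4 Day 3 calls passed (adjusted p = 0.151 for Tnc on Day 2 and 0.295 to 0.860 on Day 3). On Day 5 Postn alone passed, 86.8 ± 44.0 CPM in males against 7.01 ± 3.23 CPM in females (3.68 ± 0.49 on the log2 scale, adjusted p = 0.0299), again a DEG and without overlap, where 0.276% of all genes passed and 0.236% were DEGs. In 1 fit over all 8 groups Thbs1 (1.23, adjusted p = 0.000835), Acta2 (1.29, adjusted p = 0.0249) and Pdgfrb (-0.73, adjusted p = 0.0391) passed on Day 5 as well. With DESeq2 Thbs1 (1.297, adjusted p = 0.000314) and Acta2 (1.36, 0.0472) passed on Day 5 and Pdgfra on Day 2 (0.78, 0.00145), and without a filter on low counts Thbs1 on Day 5 (1.23, 0.00612) and Pdgfra on Day 2 (0.76, 0.0397). Tnc on Day 3 was lost without that filter (1.14, adjusted p = 0.105).

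Some markers of other cell types also passed between the sexes. On Day 3, where 21.3% of all genes passed, 2 of 7 pericyte and mesangial, 2 of 5 proximal tubule, 1 of 8 fibroblast, 1 of 7 macrophage and monocyte and 1 of 8 tested hepatocyte markers were higher in males, and 4 of 6 adipocyte, 4 of 8 tested hepatocyte, 1 of 6 smooth muscle, 1 of 2 thick limb and 1 of 3 tested skeletal muscle markers were lower. On Day 5, where Postn passed, 1 of 3 mesothelium markers was higher in males (median log2 difference of the 3 markers 3.45), with 0.276% of all genes passing. On Day 2, 1 of 7 pericyte and mesangial and 1 of 6 tested hepatocyte markers were higher and 1 of 2 tested skeletal muscle markers was lower. The part of these lists in the sex differences was not tested.

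Whether several of these sex differences passed depended on single kidneys. Over all genes, fits that left out 1 kidney gave 95 to 571 calls on Day 2, 1924 to 5770 on Day 3 and 0 to 2644 on Day 5. Tnc on Day 2 was lost without male Day 2 mouse 1 (adjusted p = 0.0548) or female Day 2 mouse 3 (0.0702). On Day 3 Tnc was lost without male mouse 2, 3 or 4 or female mouse 1 or 3 (adjusted p = 0.0653 to 0.0806), and Acta2 passed only without female Day 3 mouse 2 (0.0578 to 0.116 in the other fits). Postn on Day 5 passed when female Day 5 mouse 2 or the library labelled male Day 5 mouse 1 was left out, and its adjusted p without any 1 of the other 6 kidneys was 0.0517 to 0.164, at log2 differences of 3.42 to 4.06. When the library labelled male Day 5 mouse 1 was left out, Thbs1 (1.51, adjusted p = 0.001003) and Acta2 (1.68, adjusted p = 0.00779) passed as well.

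Whether the response to cisplatin differed between the sexes was tested by the interaction of sex and day, and 0 of the 9 genes passed on any day in the edgeR fits of the 4 groups compared with edgeR's own filter on low counts. On Day 2, 2 of the 9 had an unadjusted p under 0.05 (Fn1 and Tnc, both adjusted p = 0.9999), 0 of 17467 genes (0%) passed, 738 had an unadjusted p under 0.05, and DESeq2 called 21 genes and 0 of the 9. On Day 3, 2 of the 9 and 1252 of 17598 genes had an unadjusted p under 0.05. Of the 9 these were Pdgfrb, with a difference of log2 fold changes of 0.57 ± 0.14 (adjusted p = 0.389), and Tnc. Of all genes 0.0114% passed, and DESeq2 called 1 of the 9, Pdgfrb. On Day 5, 3 of the 9 and 2568 of 16907 genes had an unadjusted p under 0.05. Of the 9 these were Postn (3.93 ± 0.88, adjusted p = 0.0685), Thbs1 (1.49 ± 0.36, adjusted p = 0.0900) and Acta2 (1.51 ± 0.61, adjusted p = 0.256). Of all genes 0.243% passed, and DESeq2 called Postn and Thbs1. In 1 edgeR fit over all 8 groups Postn (3.87, adjusted p = 0.00375) and Thbs1 (1.44, adjusted p = 0.00348) passed on Day 5, and with at least 10 counts in every library Postn passed (4.01, adjusted p = 0.0488). Without the library labelled male Day 5 mouse 1 both passed with edgeR (Postn 4.22, adjusted p = 0.00791, and Thbs1 1.65, adjusted p = 0.00765), and without male Day 0 mouse 4 Postn passed (4.93, adjusted p = 0.0124). A rise that passed in males and not in females is therefore not by itself a tested difference between them.

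Markers of other cell types moved with the Day 5 male values. Male Day 5 mice 2, 3 and 4 held 977 to 1500 CPM of fibroblast markers, 545 to 1000 CPM of adipocyte markers, 52.3 to 215 CPM of mesothelium markers and 31.8 to 195 CPM of neutrophil markers. The Day 0 males held 168 to 852, 134 to 856, 7.21 to 20.9 and 0.868 to 1.60 CPM of the same lists. Proximal tubule markers were at 259 to 721 CPM in these 3 Day 5 kidneys, against 6594 to 7410 CPM at Day 0. The library labelled male Day 5 mouse 1 had 295 CPM of fibroblast, 25.4 CPM of mesothelium and 3227 CPM of proximal tubule markers, and among the Day 5 males it was lowest for every 1 of the 9 genes except Pdgfrb, for which it was highest. In whole kidneys, a change in the number of cells of a type and a change in RNA per cell cannot be told apart, and the part of these markers in the rises of Postn, Thbs1, Acta2 and Lox was not tested. The mitochondrial share was 42.5 to 79.8% in the Day 5 males, above the 6.46 to 24.0% of Day 0 and the 11.3 to 12.6% of Day 3. Day 5 and a high mitochondrial share therefore cannot be told apart in males.

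**Figure D4:**
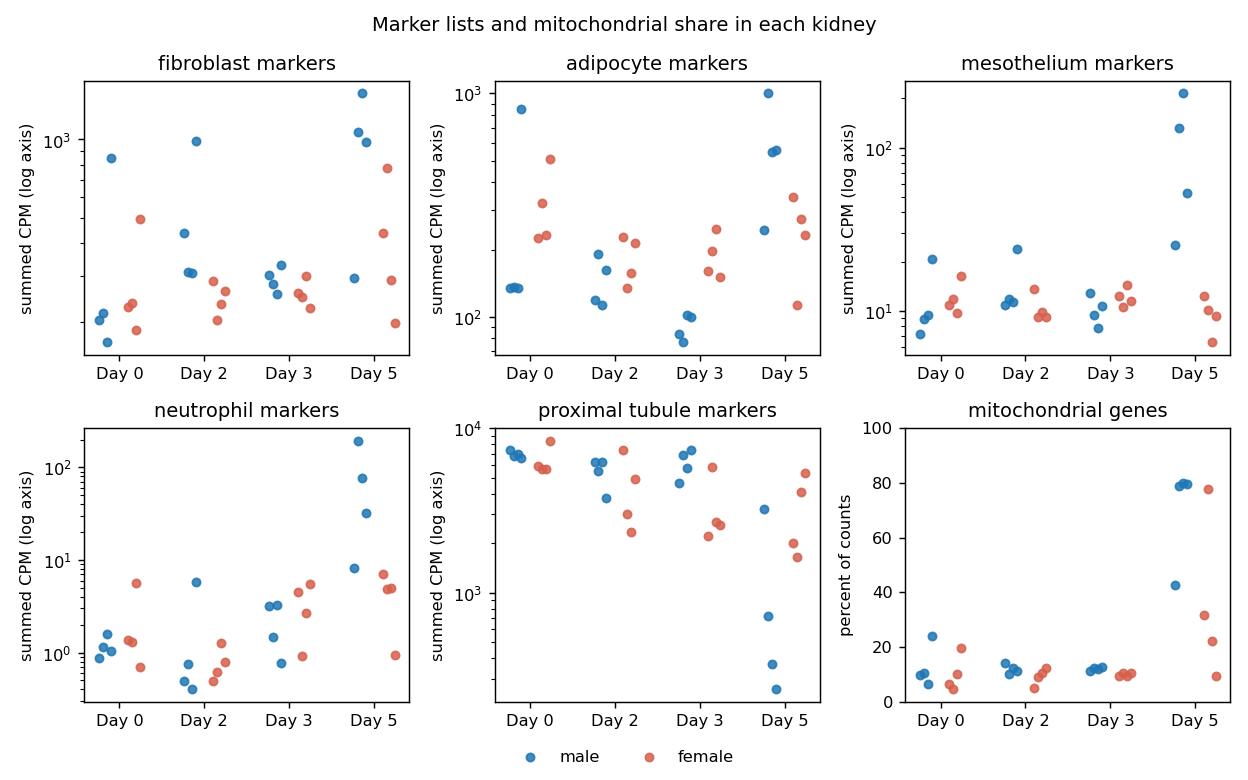
Summed CPM (log axes) of 5 marker lists and the percent of counts from mitochondrial genes (linear axis) in each of the 32 kidneys by day, males in blue and females in red. Male Day 5 mice 2, 3 and 4 lie away from the Day 0 males, with 52.3 to 215 CPM of mesothelium markers, 259 to 721 CPM of proximal tubule markers and 78.9 to 79.8% mitochondrial counts.

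By counts, 2 of 8 fibroblast markers, 2 of 3 mesothelium markers and 2 of 2 tested neutrophil markers rose in Day 5 males against Day 0. So did 1 of 6 smooth muscle, 1 of 3 tested platelet and 1 of 7 pericyte and mesangial markers. Meanwhile 2 of 6 tested hepatocyte, 1 of 5 proximal tubule and 1 of 6 tested macrophage and monocyte markers fell, and 0 of 6 adipocyte markers passed. Of all genes, 8.98% were higher and 10.2% lower in that comparison. Against Day 3, 7 of 8 fibroblast, 3 of 3 mesothelium, 3 of 3 tested neutrophil, 6 of 6 adipocyte and 6 of 6 smooth muscle markers rose. So did 3 of 3 tested platelet and 3 of 6 tested macrophage and monocyte markers. Meanwhile 3 of 5 proximal tubule, 4 of 6 tested hepatocyte and 1 of 3 podocyte markers fell. Of 7 pericyte and mesangial markers, 1 rose and 1 fell. Of all genes, 20.9% were higher and 17.1% lower than on Day 3. The summed medians of the other lists in Day 0 and Day 5 males were 56.2 and 152 CPM for smooth muscle, 109 and 170 CPM for pericytes and mesangial cells, 103 and 168 CPM for macrophages and monocytes, 12.6 and 35.0 CPM for platelets, 2.03 and 3.56 CPM for skeletal muscle, 272 and 26.8 CPM for hepatocytes, 1492 and 759 CPM for the thick limb and 187 and 136 CPM for podocytes. None of the 9 genes belongs to any of the 13 marker lists, and no marker was at 0 counts in all libraries. On Day 2 and Day 3, when Tnc and Pdgfra were raised in males, proximal tubule markers were at 3751 to 7333 CPM, mesothelium markers at 7.86 to 24.0 CPM and fibroblast markers at 256 to 985 CPM, and 0 of 8 fibroblast markers rose on either day. Some markers of other lists passed on these days in males. Podocyte markers were at 273 to 356 CPM on Day 2 and 295 to 350 CPM on Day 3 against 118 to 203 CPM at Day 0, without overlap, and 1 and 2 of the 3 rose (1.81% and 11.4% of all genes were higher on Day 2 and Day 3, and 1.35% and 13.1% lower). On Day 3, 1 of 7 pericyte and mesangial and 1 of 5 proximal tubule markers rose, while 3 of 6 adipocyte, 1 of 8 fibroblast, 1 of 6 tested hepatocyte and 1 of 6 tested macrophage and monocyte markers fell, and on Day 2 1 of 6 adipocyte and 1 of 7 tested hepatocyte markers fell. A count of 1 in 5 to 8, on Day 3 or on Day 5 against Day 0, is near the share of all genes. The median sum of pericyte and mesangial markers in males was 162 CPM on Day 2 and 153 CPM on Day 3, against 109 CPM at Day 0. Pdgfrb also rose on Day 3. The part of these lists in the rises of Tnc, Pdgfra and Pdgfrb was not tested.

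In females 1.26% of all genes were higher and 4.28% lower on Day 3, and 0.774% and 1.16% on Day 2. On Day 3, when Acta2 fell, 2 of 8 fibroblast, 2 of 6 adipocyte and 1 of 7 macrophage and monocyte markers fell, 1 of 7 pericyte and mesangial markers rose and 0 of 6 smooth muscle markers passed. Proximal tubule markers were at 2229 to 2686 CPM in Day 3 females 1, 3 and 4 and at 5794 CPM in mouse 2, against 5641 to 8425 CPM at Day 0, and 0 of the 5 passed. On Day 2, 2 of 6 adipocyte and 1 of 6 tested macrophage and monocyte markers fell. The part of these lists in the female fall of Acta2 was not tested.

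Leaving out the 5 libraries that stood apart (male Day 0 mouse 4, female Day 0 mice 2 and 4, the library labelled male Day 5 mouse 1 and female Day 5 mouse 2), each unlike the other mice of its own group, raised the male counts to 4 of the 9 genes on Day 2, 6 on Day 3 and 8 on Day 5. The share of all genes that passed in this setting is not given here, so none of its counts is set against that share. Postn on Day 5 was then 4.71 (adjusted p = 0.000264), Lox 3.69 (0.00617), Acta2 2.13 (0.001), Thbs1 2.11 (0.000799), Pdgfra 1.90 (0.00649), Mmp2 2.07 (0.0113), Fn1 1.21 (0.00988) and Tnc 1.59 (0.0190) on the log2 scale. Among females 2 of the 9 passed on Day 2 (Thbs1 0.94 and Pdgfra 1.16, adjusted p = 0.0354 and 0.0414), 4 on Day 3, with Lox at 1.82 (0.0261) and Acta2 at -0.74 (0.0249) among them, and 0 on Day 5. The sex difference on Day 5 passed for 6 of the 9 (Fn1, Postn, Tnc, Thbs1, Pdgfra and Acta2), and the interaction on Day 5 for 4 of the 9, with Postn at 4.51 (adjusted p = 0.000797), Fn1 at 2.15 (0.00776), Acta2 at 2.12 (0.0278) and Thbs1 at 1.46 (0.0157). The Day 5 groups left were 3 males with 78.9 to 79.8% mitochondrial counts and 3 females with 9.30 to 31.6%, so that in this setting sex and the mitochondrial share cannot be told apart on Day 5. Within the males, Day 5 and a high mitochondrial share cannot be told apart with or without these libraries.

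Other genes of the same roles were counted in 6 lists that hold none of the 9 genes. Their counts stand beside 1.81%, 11.4% and 8.98% of all genes higher and 1.35%, 13.1% and 10.2% lower on Day 2, 3 and 5 in males, 0.774%, 1.26% and 0.185% higher and 1.16%, 4.28% and 0.0738% lower in females, and 20.9% higher and 17.1% lower from Day 3 to Day 5 in males. The lists are small, and a count of 1 or 2 genes is no result about a list. Of the other matricellular genes, 2 of 22 tested rose in males on Day 2, 1 of 21 on Day 3 and 6 of 22 on Day 5, and none fell, with median log2 fold changes of 0.42, 0.07 and 1.26. Ccn1, an integrin-binding CCN protein, rose by 1.71 ± 0.25, 1.65 ± 0.24 and 2.17 ± 0.42 on the 3 days (adjusted p = 0.0241, 0.00603 and 0.0131). Ccn2 (CTGF) rose on Day 2 by 1.13 ± 0.24 (adjusted p = 0.0466) and the SPARC-related Smoc2 on Day 5 by 3.22 ± 0.54 (adjusted p = 0.00914). In females 0 of 21, 0 of 22 and 0 of 21 matricellular genes passed on the 3 days, with medians of -0.03, -0.11 and 0.34. From Day 3 to Day 5 in males 13 of 22 rose and 1 fell (median 1.06).

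Among matrix proteases and their inhibitors, the relatives of Mmp2, 2, 5 and 4 of 22 rose on the 3 days in males and none fell (medians 0.29, 0.27 and 0.78), and from Day 3 to Day 5 9 rose and 2 fell (median 0.92). Adamts1, which cleaves proteoglycans, rose by 0.87 ± 0.18 on Day 2 and 1.14 ± 0.19 on Day 3 (adjusted p = 0.0452 and 0.00830). Plat (tissue plasminogen activator) rose by 0.996 ± 0.21, 0.84 ± 0.20 and 2.52 ± 0.40 (adjusted p = 0.0460, 0.0227 and 0.00781) and the urokinase receptor Plaur on Day 5 by 1.82 ± 0.27 (adjusted p = 0.00633). In females Plaur rose on Day 3 (1.47 ± 0.36, adjusted p = 0.0491), 1 of 22, and 0 passed on Day 2 and Day 5 (medians -0.06, 0.25 and 0.34). Of 10 matrix crosslinking genes, the relatives of Lox, 0 rose on Day 2, Pcolce fell on Day 3 by 0.50 on the log2 scale (adjusted p = 0.0232), and 2 rose and 1 fell on Day 5 in males (medians 0.13, 0.01 and 0.37), with Loxl4 at 1.98 ± 0.42 (adjusted p = 0.0158) and the procollagen protease Bmp1 at 1.17 ± 0.26 (adjusted p = 0.0174). From Day 3 to Day 5 in males 3 of the 10 rose and 2 fell (median 0.35). In females 0 of the 10 passed on any day (medians 0.05, -0.31 and 0.01).

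Of 17 integrins and other matrix receptors, 0 rose and 1 fell on Day 2 in males, 1 rose and 1 fell on Day 3, and 5 rose and 2 fell on Day 5 (medians 0.50, 0.52 and 0.64). The epithelial integrin Itgb6 was the gene that fell on Day 2 and Day 3 and among those that fell on Day 5, with log2 fold changes of -1.41 ± 0.22, -1.25 ± 0.24 and -2.11 ± 0.28 (adjusted p = 0.0288, 0.0128 and 0.00485). Itgb8 rose on Day 3 (0.65 ± 0.17, adjusted p = 0.0288) and the laminin-binding Itga3 on Day 5 (1.42 ± 0.27, adjusted p = 0.0129). Of the 4 PDGF ligands, none passed on Day 2 or Day 3 when Pdgfra was raised, and Pdgfa rose on Day 5 in males (0.91 ± 0.23, adjusted p = 0.0251) with medians of -0.07, 0.01 and 0.30. From Day 3 to Day 5 in males 4 of the 17 receptors rose and 3 fell (median 0.25) and 2 of the 4 ligands rose (median 0.37). No gene of either list passed in females, where the medians were 0.01, 0.34 and 0.28 for the receptors and 0.09, 0.28 and 0.13 for the ligands.

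The contractile and myofibroblast genes are the relatives of Acta2. In males 0 of 13 passed on Day 2, 0 rose and 2 of 12 fell on Day 3, and 5 of 13 rose and 0 fell on Day 5 (11.4% of all genes were higher and 13.1% lower on Day 3, and 8.98% higher on Day 5; medians 0.02, -0.26 and 1.02), and from Day 3 to Day 5 10 of 13 rose (median 1.12). The tropomyosin Tpm2 fell on Day 3 by 1.08 on the log2 scale and the myosin light chain Myl9 by 0.70 (adjusted p = 0.0338 and 0.0164), and on Day 5 Tpm1 rose by 1.204 ± 0.26 and the fibroblast protease Fap by 2.85 ± 0.81 (adjusted p = 0.0171 and 0.0371). In females 1 of 13 fell on Day 2 (Tpm2, -1.08 ± 0.22, adjusted p = 0.0419), 4 of 13 on Day 3, among them Myl9 (-1.22 ± 0.20) and Tpm2 (-1.06 ± 0.17, both adjusted p = 0.0465), and 0 on Day 5 (medians -0.40, -0.46 and -0.16). Of the 14 listed genes 4 (Tagln, Cnn1, Myh11 and Lmod1) are also smooth muscle markers.

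The genes whose log2 CPM followed each of the 9 most closely across the 32 kidneys were taken from 15036 protein-coding genes by Pearson's r, a description that carries the group differences and the libraries that stood apart. Acta2 was followed by Tpm2 (r = 0.96), Clec3b (0.94) and Igfbp6 (0.94), and Lox by Sparcl1 (0.94), Oasl2 (0.92) and Myh11 (0.90). Postn was followed by Cpxm2 (0.92), Fgl2 (0.92) and Rspo1 (0.91), Mmp2 by Col6a2 (0.88), Adamts2 (0.87) and Col6a1 (0.87), and Fn1 by Col3a1 (0.80), Cpxm1 (0.78) and Mrc2 (0.76). Pdgfrb was followed by Lamc3 (0.87), Mrc2 (0.83) and Fbln5 (0.81), and Tnc by Ltbp1 (0.85), Nrp2 (0.84) and She (0.83). Pdgfra was followed by Stard9 (0.93), Adamtsl1 (0.91) and Rapgef5 (0.91), and Thbs1 by Etl4 (0.92), Tjp1 (0.90) and Tmtc1 (0.90). Among the 9 themselves r was between -0.40 (Postn with Pdgfrb) and 0.81 (Pdgfra with Lox, and Postn with Acta2), and Pdgfra and Pdgfrb had an r of 0.39.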

How the data were processed

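RNA from the whole kidneys of 32 mice, 4 of each sex at Day 0, 2, 3 and 5, was sequenced paired-end by the authors, who deposited raw counts per gene for 54532 genes and FPKM values (count per gene length and library size). The coordinates in the count table are those of GRCm38, the build the study names, while the submitters' processing notes list GRCm39, mm39, HTSeq and DESeq2. Strandedness and tool versions are not given in the sources used here. Groups and mouse numbers were taken from the sample titles. Each library was treated as 1 mouse.

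The 9 genes and all lists were chosen with earlier results of these data known. The test was edgeR's robust quasi-likelihood test (edgeR 4.0.16, R 4.3.3) on the counts, with TMM and filterByExpr, each contrast fitted on the groups it compares, with Benjamini-Hochberg adjustment over all genes tested. A gene rose or fell when its adjusted p was under 0.05, and a DEG also had an absolute log2 fold change over 1.5. CPM used TMM factors over 32 libraries, and log2 CPM a prior count of 2. FPKM served only to order the genes at Day 0. SE is that of the log2 fold change.

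The genes named are the 9, the 3 protein-coding genes most correlated with each, at most 2 genes per list and contrast with the lowest adjusted p among those that passed, and the sex-check genes. The few others named as shared by lists or standing for a marker list were chosen after their values were seen. The alternatives were the size factors and the Wald test of DESeq2 (1.42.0), a filter of none or of at least 10 counts in every library, a replicate block of mouse numbers, a single model of the 8 groups, no mitochondrial genes, and fits that omitted 1 mouse. Omitting the 5 libraries that stood apart was chosen after seeing the data. On simulated counts of male Day 3 against Day 0 with 200 genes changed by a log2 fold of 3, edgeR called 200 of 200 and 9 unchanged genes among 15644 tested, and DESeq2 called 200 and 17. The simulation used the same dispersion for all genes, changed only genes above a minimum mean count and held no library that stood apart. It checks that the code runs correctly and does not show how smaller changes are called in these groups. Totals were 16502107 to 35961325 counts per library.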

Additional observations from a re-analysis of the deposited data

Results flagged for a closer look

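In 72 groups of 4 values (9 genes in 8 groups), 8 had a kidney whose gap to its nearest neighbour exceeded the critical share of the group's range in Dixon's test, where chance gives about 1 in 20. Male Day 0 mouse 4 was high for Postn (21.7 CPM, others 3.10 to 4.95) and Mmp2 (17.9 CPM, others 2.95 to 5.45), and female Day 0 mouse 4 for Thbs1 (60.1 CPM, others 32.6 to 35.1). Male Day 2 mouse 4 was high for Mmp2 (30.8 CPM, others 7.70 to 10.7), female Day 2 mouse 1 for Pdgfrb (81.9 CPM, others 40.7 to 43.7) and male Day 3 mouse 1 for Pdgfra (76.99 CPM, others 62.6 to 65.0). On Day 5, female mouse 2 was high for Fn1 (143 CPM, others 23.3 to 34.6) and female mouse 1 for Postn (11.9 CPM, others 5.14 to 5.53).

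Fn1 on Day 2 lay on opposite sides of Day 0 in the sexes. All 4 Day 2 males were above the mean log2 CPM of the Day 0 males and all 4 Day 2 females below that of the Day 0 females, with a difference of log2 fold changes of 1.86 ± 0.63 (SE) that did not pass the interaction test of edgeR (unadjusted p = 0.00928, adjusted p = 0.9999). In fits that left out 1 kidney the difference was 1.19 to 2.32.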

How the results depend on the processing

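Of 135 combinations of the 9 genes and 15 contrasts, 54 had an unadjusted p under 0.05, and none of these changed direction in 912 alternative fits. Of the other 81, 38 changed direction in at least 1 fit. The 54 were picked by their p in the same kidneys, so a change of direction was unlikely from the outset. The number of the 9 genes that passed was more than 1.5 times away from the reported one under the settings given here, whose causes were not tested. The share of all genes that passed under each setting is not given beside these counts. With the DESeq2 Wald test it was 5 in males on Day 5, 1, 5 and 1 in females on Day 2, 3 and 5, 3 between the sexes on Day 2 and 3 on Day 5, and 1 and 2 for the interaction on Day 3 and Day 5. Without a filter it was 1 in males on Day 5, 1 in females on Day 2, 1 on Day 5, and 2 between the sexes on Day 2 and on Day 5. With at least 10 counts in every library it was 1 in females on Day 2 and 1 for the interaction on Day 5. In 1 fit over all 8 groups it was 5 in males on Day 5, 1 in females on Day 2, 2 in females on Day 5, 0 between the sexes on Day 2 and on Day 3, 4 on Day 5, and 2 for the interaction on Day 5. Without the libraries that stood apart it was 8 in males on Day 5, 2 and 4 in females on Day 2 and Day 3, 6 between the sexes on Day 5 and 4 for the interaction on Day 5. With an absolute log2 fold change over 1.5 as well, it was 1 in males on Day 3, 0 in females on Day 3, 3 in males between Day 3 and Day 5 and 0 between the sexes on Day 3. DESeq2's size factors and leaving out mitochondrial genes moved none of the 15 counts by that much.

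The mouse numbers did not pair the kidneys across the contrasts as a whole. The correlations of same-numbered deviations were -0.48 to 0.55, and in no contrast were all 4 over 0.1. Between the sexes at Day 0, however, 3 of the 4 were over 0.1, and 3 males were closest to the female of their own number. With the mouse number as a replicate block the count was 0 in males on Day 2, 1 in males on Day 3, 0 in females on Day 3 and 0 between the sexes on Day 5, and it stayed within 1.5 times elsewhere. Leaving out each kidney in turn gave 0 to 4, 2 to 6 and 2 to 6 genes in males on Day 2, 3 and 5, 0 to 3, 0 to 5 and 0 to 2 in females, 4 to 7 in males between Day 3 and Day 5, 0 to 1, 2 to 5 and 0 to 3 between the sexes on Day 2, 3 and 5, and 0 to 2 for the interaction on Day 5. Over all genes the same fits gave 13 to 2306, 669 to 6220 and 832 to 3951 calls in males and 21 to 4776, 0 to 6774 and 8 to 2082 in females. They gave 3536 to 8814 in males between Day 3 and Day 5, and 95 to 571, 1924 to 5770 and 0 to 2644 between the sexes. For the interaction on Day 5 the range was 0 to 1173. A call gained or lost in such a fit is therefore no result about that gene alone. Depth limits Lox most at Day 0, with as few as 14 counts in a library. On Day 5 the lowest counts were 63 for Tnc in males and 46 for Postn in females.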
